A study of Homo sapiens with 4 samples.

Results

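Matrix proteases and their inhibitors were read as every probe for a gene named MMP, TIMP, ADAM or ADAMTS followed by a digit, whatever its signal. This rule took 101 of the 50599 probes on the array, which carry 72 of its 36337 gene names: 23 MMP, 4 TIMP, 24 ADAM and 21 ADAMTS genes. The ADAM and ADAMTS counts here and below include 6 names, with 7 probes, of antisense transcripts, pseudogenes or unlisted genes. They are ADAM1, ADAM3A, ADAM5P, ADAM6, ADAMTS9-AS1 and ADAMTS9-AS2, and of them only ADAM1 was tested. The RNA was that of GIST-T1, a long-established human line of gastrointestinal stromal tumour, a mesenchymal tumour of the gut wall that is usually driven by the receptor kinase KIT. For each transfection, 3000000 cells were nucleofected with a miR-34a mimic (100 pmol), which is synthetic RNA standing in for the mature miRNA, or with 100 pmol of a negative control RNA. Both groups were grown in the same serum-containing medium, RNA was taken after 48 h, and 100 ng of it was labelled with Cy3 for 1 one-colour Agilent array per sample, 2 per group. The study also ran Matrigel invasion assays, in which cells cross a layer of basement membrane extract, after transfection of the same kind. The arrays measure RNA of the enzymes and not secreted protein, activation or proteolysis.

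Matrix metalloproteinases (MMPs) are zinc enzymes that are made as inactive precursors and cut collagens, laminins and other matrix proteins, either after secretion or while held in the cell membrane. ADAMs are membrane proteins that shed growth factors and receptors from the cell surface, and several of them lack the zinc site and serve in adhesion. ADAMTS enzymes are secreted and cut proteoglycans, procollagens and other extracellular proteins. Tissue inhibitors of metalloproteinases (TIMPs) bind the active site of these enzymes, so the balance of enzyme and inhibitor is widely studied in invasion.

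A miRNA finds its targets mainly through its seed, bases 2 to 8. The mature miR-34a-5p sequence of RefSeq (GRCh38.p14, chr1:9151735-9151756, minus strand) is shown because the mimic is named for it, with the seed in capitals.
miR-34a-5p: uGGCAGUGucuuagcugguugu
The 60-base probes were searched, on the printed strand only, for CACTGCC, which pairs with bases 2 to 8, and for ACTGCCA, which pairs with bases 2 to 7 and ends in A. None of the 101 probes for these genes held CACTGCC, against 0.435% of all probes. Of the 101 probes, 3 held ACTGCCA, or 2.97%, against 0.393% of all 50599 probes. These 3 probes are shown as stretches of 30 bases with ACTGCCA in capitals, since they are the places in the probe set where a member gene's sequence matched the seed. A probe covers a small piece of its transcript, so a missing match says nothing of the rest of the RNA.
ADAMTS1 (probe A_23_P211039, hg19 chr21:28209709-28209768): catcagagtaaACTGCCAgttgcaaatttg
MMP14 (probe A_24_P82106, hg19 chr14:23315791-23315850): ggACTGCCAagccaccctaagaccttggga
ADAM12 (probe A_33_P3256848, hg19 chr10:127731652-127731711): caacaggaagaACTGCCActgcgaggccca
ADAMTS1 was the 1 gene of these 3 whose matching probe was detected on all 4 arrays, and its values are given with the ADAMTS genes. The MMP14 probe was not detected on any array, and the ADAM12 probe was detected on negative control 2 alone.

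A probe counted as detected when its signal was well above background by the scanner software's own flag. Of all probes, 41.8% to 45.2% were detected on an array, and of the 101 probes for these genes 40.6% to 44.6%, the lowest share being that of miR-34a mimic 2. No spot was saturated. All probes for KIT, ANO1, ETV1 and PRKCQ, which mark this tumour, were detected on all 4 arrays, while no probe for PECAM1 of endothelium or S100B of Schwann cells was detected on any; EPCAM, an epithelial marker, DES, a muscle marker, and CD34, which marks this tumour and endothelium, were also detected on all 4, and of 5 probes for PTPRC of leukocytes 4 were detected on no array and none on all 4. Levels are given as log2 signal relative to the 75th percentile of the same array, so a level of 0 is that percentile, and they compare arrays for 1 probe but not 1 probe with another.

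The detected repertoire held 34 of the 72 genes, counted as those with a probe detected on both arrays of at least 1 group (43 probes, which are the ones tested). At least 1 probe was detected on all 4 arrays for 31 genes, while 31 genes had no detected probe at all. By family, 11 of 23 MMP, 3 of 4 TIMP, 9 of 24 ADAM and 11 of 21 ADAMTS genes were tested. A further 9 probes were detected on some array without being tested, 8 of them on 1 array only. Among these were MMP13, a collagenase, at -5.42 and -2.49 with the mimic and at -5.37 and -5.33 with the control, and ADAMTS15, a proteoglycan-cleaving enzyme, at -5.55 and -2.29 with the mimic and at -5.50 and -4.43 with the control. Both were thus detected on miR-34a mimic 2 and on no other array. The 9 probes had 3 and 2 detections on the mimic arrays and 2 and 3 on the control arrays. Probes of ADAM8 and MMP25 were detected on miR-34a mimic 1 alone. Probes of ADAM12, ADAM33, ADAM5P and MMP16 were each detected on 1 control array alone.

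**Figure D1:**
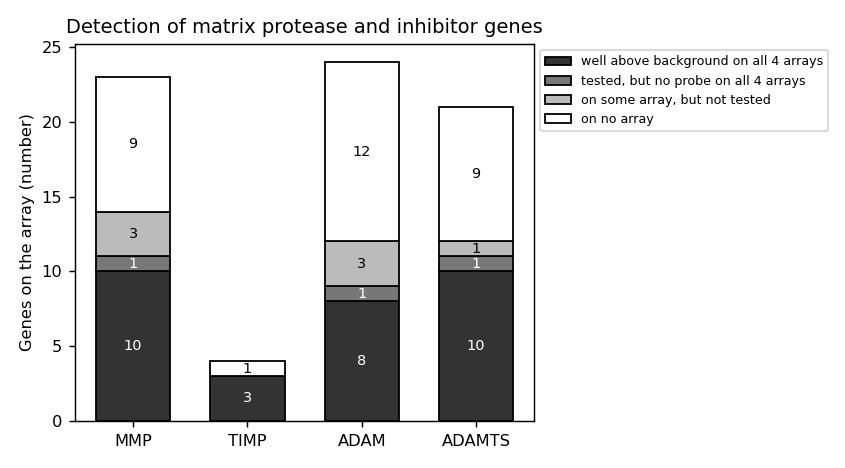
Number of genes on the array (vertical axis) in each family, split by detection; "on" means well above background. Genes with a probe detected on all 4 arrays made up 10 of 23 MMP, 3 of 4 TIMP, 8 of 24 ADAM and 10 of 21 ADAMTS genes, and 9 MMP, 1 TIMP, 12 ADAM and 9 ADAMTS genes were detected on no array.

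The question put to the arrays was which of these genes had another RNA level after the mimic than after the negative control. Some were lower and some higher, and most shifts were small: 38 of the 43 tested probes lay within 1.5-fold of the control, the study's own threshold of size. Of all tested probes, only 4.8% were lower and 2.11% higher by more than that. MMP1 and ADAM15 were lower with the mimic and TIMP2 and ADAMTS13 higher, with replicates close together, and these 4 genes were the ones called when the variance was modelled against signal strength. With limma's moderated test and Benjamini-Hochberg adjustment over all 21474 tested probes, no member reached an adjusted p under 0.05, nor did any probe of the array (0%). Without adjustment, 6 member probes were lower and 4 higher at p under 0.05, or 14% and 9.3% of the 43, against 11.6% lower and 12.7% higher among all tested probes. A test of each probe on its own, without moderation by limma, gave 11 such member probes, or 25.6%, against 19.6% of all probes, and no member after adjustment. Modelling the variance as a trend with signal (limma's trend option) gave 2 lower and 2 higher member probes at an adjusted p under 0.05, or 4.65% each way, against 3.6% lower and 3.81% higher of all tested probes. All of these shares were close to the background.

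By size, 3 member probes were lower and 2 higher by more than 1.5-fold (6.98% and 4.65%), against 4.8% and 2.11% of all tested probes. Of the 3 lower probes 1, that of ADAM33, was not well above background with the mimic. With its mimic signals raised to the lowest detected signal of their arrays, it was 1.38-fold lower. These counts rest on single arrays: without miR-34a mimic 1 there were 5 lower and 3 higher, without miR-34a mimic 2 there were 3 lower and 5 higher, and without negative control 2 there were 1 lower and 3 higher. The share of all probes past 1.5-fold with an array left out was not counted. Both mimic arrays lay below both control arrays for 17 member probes and above them for 8 (39.5% and 18.6%), against 30.1% and 30.4% of all probes measured on all 4 arrays. The other 18 overlapped. With 1 probe per gene, 18 genes were lower and 16 higher and the median difference was -0.07 on the log2 scale, against -0.01 over all tested probes. With 2 arrays a group, an exact permutation test of a single probe cannot go below p = 0.33. The labels do not say whether the replicates were separate cultures, so the p-values measure the spread between these samples, which may be technical, and so few arrays give limited precision.

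**Figure D2:**
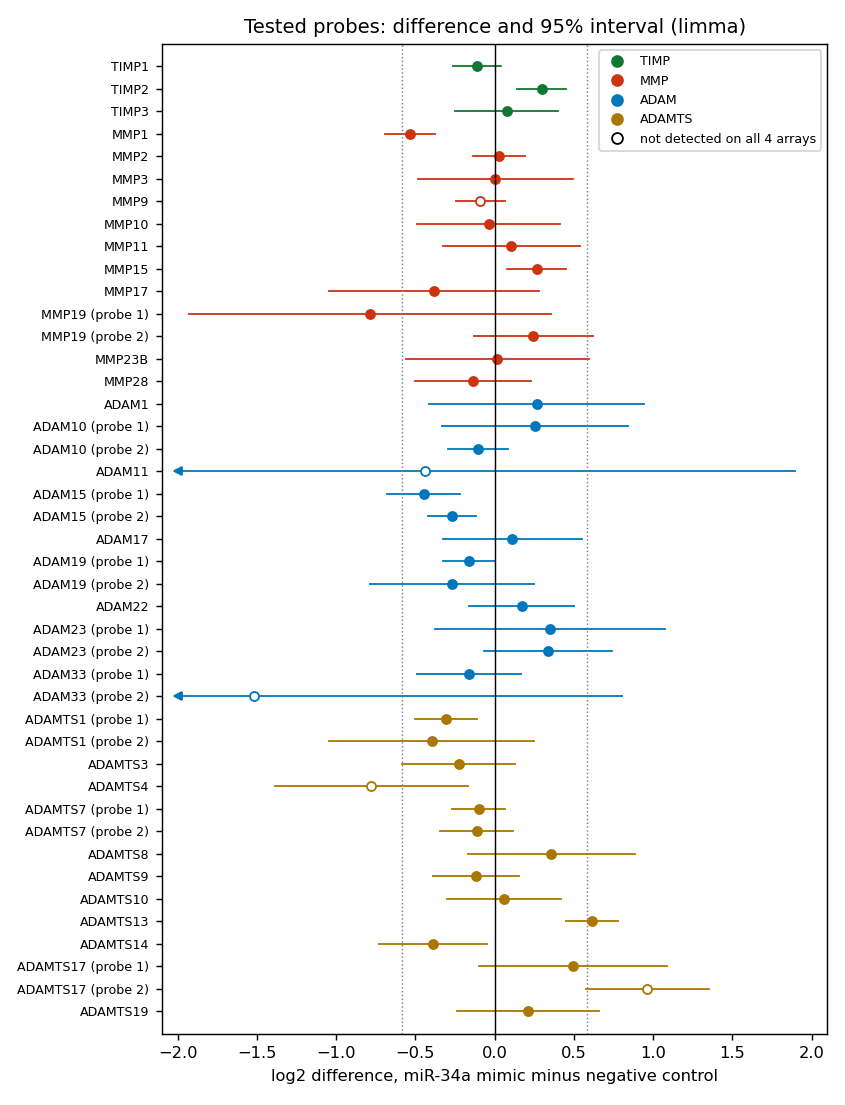
Difference in log2 signal, miR-34a mimic minus negative control (horizontal axis), for the 43 tested probes, with limma's 95% interval as a line and arrowheads where it runs off the axis; dotted lines mark 1.5-fold. Most points lie inside the dotted lines, MMP1, ADAM15, TIMP2 and ADAMTS13 have short intervals away from 0, and ADAM33 (probe 2) and ADAM11 have intervals that run off the left of the axis.

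Among the inhibitors, TIMP2 was higher with the mimic, TIMP1 was slightly lower, TIMP3 overlapped and TIMP4 was not detected. TIMP2, which inhibits MMPs and also takes part in the activation of MMP2 at the cell surface, had log2 levels of 6.46 and 6.49 with the mimic and of 6.18 and 6.17 with the control (probe at hg19 chr17:76849063-76849122). Both mimic arrays stood above both controls, and replicates were nearly equal. The difference was 0.30 on the log2 scale (SE 0.0528, 2 arrays per group), or 1.23-fold, with a limma adjusted p of 0.110. It was past the threshold with the variance trend (limma adjusted p = 0.0195) and with normexp background correction (limma adjusted p = 0.0430), and the adjusted p ran from 0.0195 to 0.368 over all alternatives.

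TIMP1, a secreted inhibitor of most soluble MMPs, had log2 levels of 4.45 and 4.48 with the mimic and of 4.59 and 4.57 with the control. The groups did not overlap, but the log2 difference was only -0.11 (SE 0.0528, limma adjusted p = 0.292). TIMP3, an inhibitor that stays bound to the matrix and also blocks ADAM17 and the ADAMTS aggrecanases, stood at 2.53 and 2.35 with the mimic and at 2.47 and 2.27 with the control. Its groups overlapped, and its log2 difference was 0.07 (SE 0.111, limma adjusted p = 0.696).

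Of the 3 collagenases, which cut fibrillar collagen, MMP1 alone was tested. MMP1 had log2 levels of 4.30 and 4.32 with the mimic and of 4.86 and 4.83 with the control (probe at hg19 chr11:102660697-102660756). Both mimic arrays lay below both controls, and the gap was many times that between replicates. The log2 difference was -0.54 (SE 0.0537), or 1.45-fold lower, with a limma adjusted p of 0.0948, which no probe of the array went below. It held between -0.55 and -0.51 under every alternative run. The limma adjusted p was 0.0099 with the variance trend and 0.0246 with normexp correction, and ranged from 0.0099 to 0.357 over all alternatives.

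MMP1 lies in a cluster of MMP genes, and its tested neighbours had differences near 0. The probes of 9 MMP genes fall within 420 kb of chromosome 11 (hg19 chr11:102394029-102813832), and 3 of these genes were tested. MMP3, stromelysin 1, which also activates other MMPs, had a log2 difference of 0.00 (SE 0.168, limma adjusted p = 0.992), and its levels were -2.32 and -1.89 with the mimic and -2.10 and -2.11 with the control. MMP10, stromelysin 2, had a log2 difference of -0.04 (SE 0.156, limma adjusted p = 0.891), with levels of -0.10 and 0.28 with the mimic and 0.08 and 0.18 with the control. Both genes overlapped between the groups. Among the other 6, MMP7, MMP8, MMP12, MMP20 and MMP27 were detected on no array and MMP13 on 1. The difference between MMP1 and its neighbours was not tested.

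The gelatinases, which cut the type IV collagen of basement membranes, had differences near 0. MMP2 had log2 levels of 1.01 and 0.95 with the mimic and of 0.95 and 0.97 with the control. Its groups overlapped, and the log2 difference was 0.03 (SE 0.0568, 95% interval -0.14 to 0.19, limma adjusted p = 0.80). This probe lies at hg19 chr16:55540518-55540577. A second probe with the MMP2 name, at chr16:55423671-55423730, was not detected, and whether it reads MMP2 RNA was not analysed. MMP9 was dim, at -3.19 and -3.16 with the mimic, where it was not well above background, and at -3.07 and -3.09 with the control, where it was. Its log2 difference was -0.09 (95% interval -0.25 to 0.06, limma adjusted p = 0.364), and with quantile normalization it turned to 0.20.

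MMP14, the membrane-type MMP best known for activating MMP2 and for pericellular collagen cutting, was not detected on any array by its single probe. Its log2 signals were -5.47 and -5.39 with the mimic and -4.28 and -3.57 with the control, all of them below the detection flag. Of the other membrane-type genes, MMP15, a transmembrane MMP, had levels of -0.99 and -0.89 with the mimic and of -1.19 and -1.22 with the control. Both mimic arrays were above both controls, by 0.26 on the log2 scale (SE 0.0648), 1.20-fold, with a limma adjusted p of 0.144. MMP17, which is held to the membrane by a lipid anchor, had a log2 difference of -0.38 (limma adjusted p = 0.367) without overlap of the groups.

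MMP19, a secreted MMP that cuts basement membrane proteins, had a pair of tested probes that pointed in opposite directions. Probe 1 (A_23_P203888) stood at -1.72 and -1.90 with the mimic and at -1.53 and -0.50 with the control. Its log2 difference of -0.79 (SE 0.393, 1.73-fold lower, limma adjusted p = 0.311) rested on negative control 2, without which it was -0.27. Probe 2 (A_24_P184445) stood at -2.00 and -1.95 with the mimic and at -2.38 and -2.06 with the control, a log2 difference of 0.24 (SE 0.129, limma adjusted p = 0.332). MMP11, MMP23B and MMP28 had log2 differences of 0.10, 0.02 and -0.14, and their groups overlapped. MMP23B has a near-identical copy, MMP23A, so its signal cannot be given to 1 of them.

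**Figure D3:**
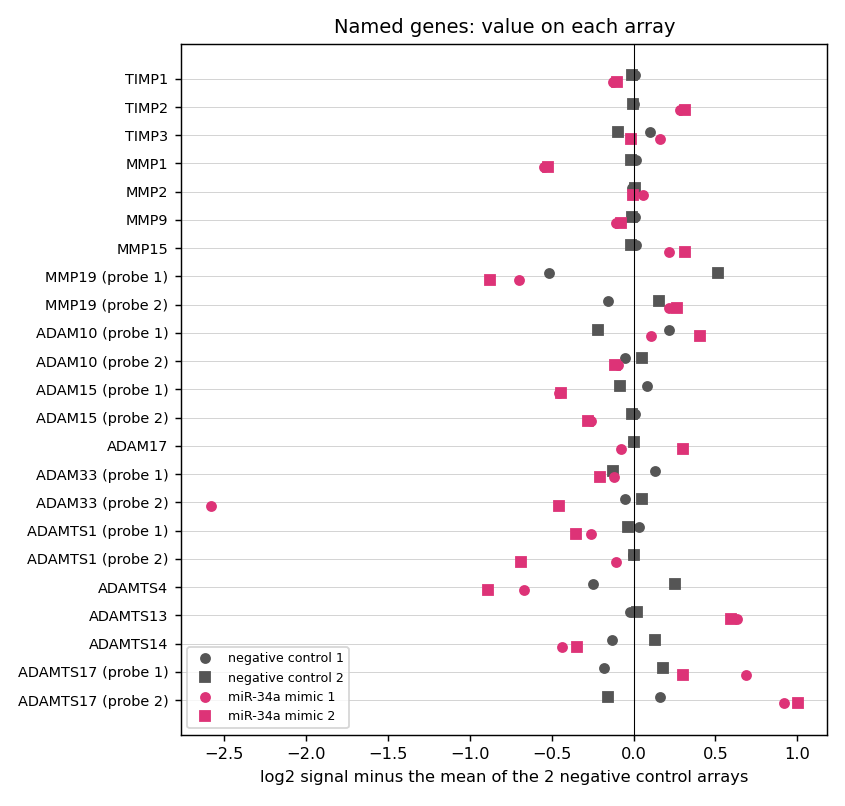
Log2 signal of each array minus the mean of the 2 negative control arrays (horizontal axis) for the 23 tested probes of the named genes; circles are replicate 1, squares replicate 2. MMP1, ADAM15 and ADAMTS1 (probe 1) have both mimic arrays to the left of both controls, TIMP2, MMP15, ADAMTS13 and ADAMTS17 have them to the right, and 1 mimic array of ADAM33 (probe 2) stands far from the other.

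The sheddases ADAM10 and ADAM17 had small differences of either sign. ADAM17, which releases TNF and ligands of the EGF receptor, had log2 levels of 1.19 and 1.57 with the mimic and of 1.27 and 1.27 with the control. The log2 difference of ADAM17 was 0.11 (SE 0.152, 95% interval -0.33 to 0.55, limma adjusted p = 0.667), and it was -0.08 without miR-34a mimic 2. ADAM10, which cuts Notch and cadherins, had probe 1 (A_23_P48886) at -1.55 and -1.25 with the mimic and at -1.44 and -1.87 with the control, a log2 difference of 0.25 (limma adjusted p = 0.478). Its probe 2 (A_33_P3243857) stood at 0.06 and 0.03 with the mimic and at 0.10 and 0.20 with the control, a log2 difference of -0.10 (limma adjusted p = 0.391). The signs of both probes were opposite.

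ADAM15, an ADAM with an integrin-binding motif that cuts cadherins, was lower on both of its tested probes. Probe 1 (A_23_P159227) stood at -0.47 and -0.46 with the mimic and at 0.06 and -0.10 with the control. Probe 2 (A_33_P3380693) stood at 3.41 and 3.40 with the mimic and at 3.68 and 3.66 with the control. Neither probe overlapped between the groups. The log2 differences were -0.45 (SE 0.0791) and -0.27 (SE 0.0525), or 1.36-fold and 1.20-fold lower, with limma adjusted p of 0.110 and 0.120. With the variance trend the limma adjusted p was 0.0579 for probe 1 and 0.0276 for probe 2. With normexp correction the difference of probe 1 was -0.24.

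ADAM33 was dim, and 1 of its probes was not well above background with the mimic. Probe 2 (A_33_P3342653) stood at -5.38 and -3.25 with the mimic, where it was not well above background, and at -2.85 and -2.74 with the control, where it was. Its measured log2 difference was -1.52 (SE 0.798, limma adjusted p = 0.327), which as a bound is at least 1.38-fold lower with the mimic; it was -0.45 without miR-34a mimic 1 and -2.58 without miR-34a mimic 2. Probe 1 (A_23_P502343) was detected on all 4 arrays and overlapped, with a log2 difference of -0.16 (limma adjusted p = 0.429). Of the 5 tested ADAMs with a catalytic zinc site, counted by 1 probe each, 4 were lower and 1 higher. Among all tested probes, 51.5% were lower and 48.5% higher. The 4 include ADAM33 by probe 1, with overlap, and ADAM10 by probe 2, whose probe 1 was higher. Of the 3 ADAMs without a zinc site, which act in adhesion, 2 were higher and 1 was lower, ADAM11, on a probe detected on 3 arrays. ADAM1, with a log2 difference of 0.26 and overlap, was counted in neither group. ADAM23, an adhesion ADAM that binds integrins, had log2 differences of 0.35 and 0.34 on its probes (limma adjusted p = 0.438 and 0.255).

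Of 4 tested proteoglycan-cleaving ADAMTS genes, 3 had a difference below 0, as did 51.5% of all tested probes. Without overlap, 2 of the 4 were lower and 1 higher, against 30.1% and 30.4% of all probes. ADAMTS1, which cuts aggrecan and versican, was lower on both of its tested probes. Probe 1 (A_23_P211039), whose seed match is shown above, stood at -0.57 and -0.66 with the mimic and at -0.28 and -0.34 with the control, without overlap. Its log2 difference was -0.31 (SE 0.0665, 1.24-fold lower, limma adjusted p = 0.130), and with normexp correction it was -0.16. Probe 2 (A_33_P3390013) stood at -1.59 and -2.17 with the mimic and at -1.48 and -1.48 with the control, a log2 difference of -0.40 (limma adjusted p = 0.347) that was -0.11 without miR-34a mimic 2. ADAMTS4, an aggrecanase, stood at -2.80 and -3.02 with the mimic and at -2.38 and -1.88 with the control, and was detected on 3 of the 4 arrays, all but miR-34a mimic 2. Its log2 difference was -0.78 (SE 0.210, 1.72-fold lower, limma adjusted p = 0.159), and it was -0.28 with normexp correction. ADAMTS8 was higher by 0.36 on the log2 scale (limma adjusted p = 0.317) without overlap, and ADAMTS9 had a difference of -0.12 with overlap.

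Both tested procollagen N-propeptidases, which trim procollagen before fibrils form, were lower without overlap, which held for 30.1% of all probes. ADAMTS14 stood at -2.60 and -2.51 with the mimic and at -2.30 and -2.03 with the control. Its log2 difference was -0.39 (SE 0.116, 1.31-fold lower, limma adjusted p = 0.178), and ADAMTS3 had a difference of -0.23 (limma adjusted p = 0.337).

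Of the 5 remaining tested ADAMTS genes, 4 had a difference above 0, as did 48.5% of all tested probes, and ADAMTS13 and 1 probe of ADAMTS17 were past 1.5-fold. ADAMTS10 and ADAMTS19, with log2 differences of 0.06 and 0.21, overlapped between the groups. ADAMTS13, the plasma protease that cuts von Willebrand factor, stood at 0.10 and 0.07 with the mimic and at -0.55 and -0.51 with the control (probe at hg19 chr9:136324399-136324458). Both mimic arrays were above both controls, and replicates lay close. ADAMTS13 was higher by 0.61 on the log2 scale (SE 0.0559), 1.53-fold higher, with a limma adjusted p of 0.0948, which was 0.0236 with the variance trend and 0.0461 with normexp correction. The size was not as stable, being 0.31 on the log2 scale with normexp. Over all alternatives the limma adjusted p ran from 0.0236 to 0.357.

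ADAMTS17, a secreted enzyme linked to microfibrils, was higher on both tested probes. Probe 2 (A_33_P3309626) stood at -1.97 and -1.89 with the mimic and at -2.73 and -3.05 with the control, and was detected on both mimic arrays and on negative control 1. The mimic exceeded the control by 0.96 on the log2 scale (SE 0.133, 1.95-fold, limma adjusted p = 0.0954). Probe 1 (A_33_P3241051) stood at -1.71 and -2.09 with the mimic and at -2.57 and -2.21 with the control, a log2 difference of 0.49 (SE 0.204, 1.41-fold, limma adjusted p = 0.254). Neither probe overlapped, but with normexp correction the differences were 0.19 and 0.12. The other tested genes, 17 with 20 probes, ranged from -0.44 (ADAM11, an adhesion ADAM without a zinc site) to 0.36 (ADAMTS8) in log2 difference, with limma adjusted p from 0.209 to 0.992. The ADAM11 probe stood at -1.99 and -4.13 with the mimic, the second not detected, and at -2.69 and -2.54 with the control (SE 0.802). Of the 20 probes, 5 were lower and 2 higher without overlap, and 13 overlapped. Among all probes 30.1% were lower and 30.4% higher without overlap. The naming rules had already taken out genes by overlap, p-value and size, so this split is partly set by them.

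Agreement between probes of 1 gene gives a further view of these differences. Of the 9 genes with more than 1 tested probe, 7 had the same sign on both and 2, ADAM10 and MMP19, did not. Both probes of a gene read the same 4 RNA samples, so their agreement does not add replicates. Replicates of the member probes differed by more than 1.5-fold for 3 of 43 probes with the mimic and for 1 of 43 with the control. The same shares over the whole array, for sign and for replicates, were not counted. The median SE was 0.126 for the member probes and 0.0812 for all tested probes.

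**Figure D4:**
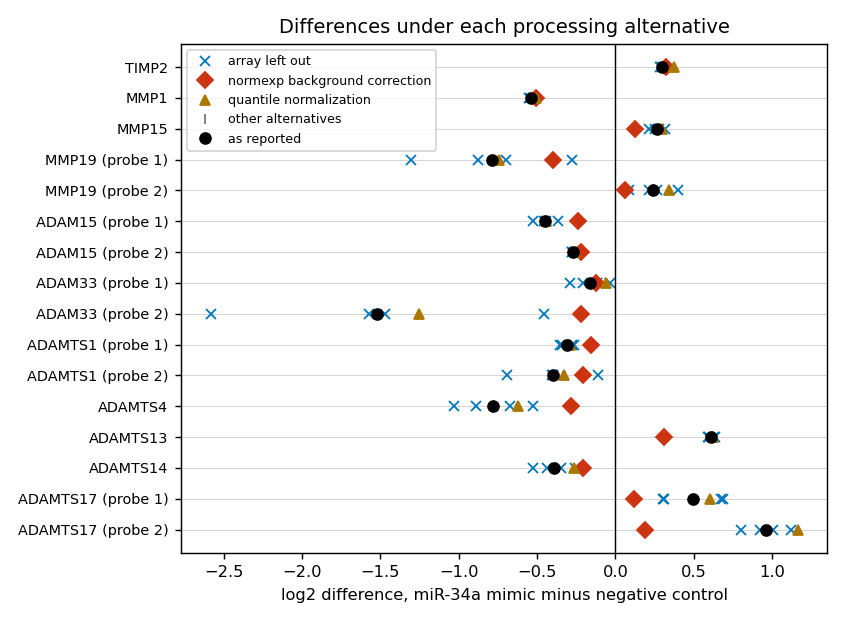
Log2 difference, miR-34a mimic minus negative control (horizontal axis), of 16 probes as reported and under each alternative processing. TIMP2, MMP1 and ADAM15 (probe 2) keep nearly the same value. ADAMTS13, ADAMTS17 and ADAM33 (probe 2) move toward 0 with normexp background correction. MMP19 (probe 1) and ADAM33 (probe 2) move with the array left out.

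Genes that act beside these proteases were read from lists of related genes, by 1 probe per gene, and none reached an adjusted p under 0.05 in the limma fit used for the members. In the plasminogen system, whose product plasmin cuts fibrin and activates MMPs, 5 of 10 genes were tested, 3 lower and 2 higher and none past 1.5-fold. PLAU, the urokinase that makes plasmin, stood at 1.65 and 1.64 with the mimic and at 2.10 and 2.04 with the control, a log2 difference of -0.43 (limma adjusted p = 0.0954, and 0.0194 with the variance trend). Its second probe had a difference of -0.37 (limma adjusted p = 0.151), and PLAUR, its receptor, had -0.32 (limma adjusted p = 0.215).

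Of the regulators of MMPs and ADAMs, 12 of 14 were tested, 7 lower and 5 higher and none past 1.5-fold. RECK, a membrane-anchored inhibitor of several MMPs, stood at 0.30 and 0.27 with the mimic and at 0.63 and 0.69 with the control. The log2 difference of RECK was -0.38 (limma adjusted p = 0.0983, and 0.0434 with the variance trend), with -0.23 on its second probe. Of the ADAMTS-like proteins, which resemble ADAMTS enzymes without the protease part, 5 of 6 were tested, 2 lower and 3 higher, and none was called with the trend.

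Of other matrix-degrading enzymes and inhibitors, 11 of 19 on the array were tested, 5 lower and 6 higher. ST14, the membrane serine protease matriptase, had the widest difference of that list, -0.76 on the log2 scale (SE 0.346, limma adjusted p = 0.284), at -0.30 and -1.19 with the mimic and at 0.12 and -0.10 with the control. CTSB, cathepsin B, a lysosomal protease that tumour cells can secrete, stood at 1.80 and 1.83 with the mimic and at 2.41 and 2.39 with the control. The difference on the log2 scale was -0.58 (SE 0.0533, limma adjusted p = 0.0948, and 0.0102 with the trend). CTSL1, cathepsin L, had a difference of -0.37 (limma adjusted p = 0.0954, and 0.0141 with the trend) on 1 probe and of 0.02 on the other. CST3, cystatin C, an inhibitor of these cathepsins, had 0.29 (limma adjusted p = 0.122, and 0.0267 with the trend) on 1 probe and -0.17 on the other. PLAU, RECK, CTSB, CTSL1 and CST3 were singled out after their values were seen, as was ETS1.

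AP-1 and ETS factors bind the promoters of many MMP genes. Of 12 such genes 10 were tested, 7 lower and 3 higher. For 7 genes both mimic arrays lay below both controls and for 1 above, where 30.1% and 30.4% of all probes did so. The 7 include small log2 differences: ETV4 (-0.12), ETV5 (-0.08) and ETV1 by its probe A_33_P3357949 (-0.07). Of the other ETV1 probes, A_32_P78491 (0.29) and A_33_P3357954 (0.05) were higher without overlap. The remaining ETV1 probe, A_33_P3401156 (-0.02), was lower without overlap. JUNB, an AP-1 subunit, stood at -1.53 and -1.41 with the mimic and at -0.78 and -0.91 with the control, a log2 difference of -0.63 (SE 0.0829, 1.54-fold lower, limma adjusted p = 0.0954, and 0.0522 with the trend). Over all alternatives the limma adjusted p of JUNB ran from 0.0482 to 0.357. ETS1 stood at 0.45 and 0.44 with the mimic and at 0.84 and 0.81 with the control, a difference of -0.38 (limma adjusted p = 0.0954, and 0.0372 with the trend). Whether these differences bear on those of MMP1 or the other proteases was not tested.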

How the data were processed

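The deposited files were scanner output of Agilent Feature Extraction (file header: 10.7.3.1), and the authors' processed intensity per spot (gProcessedSignal, background-subtracted on a linear scale) was used. Here, control spots and outlier spots (293 to 424 of 58717 per array) were left out, values were taken as log2, and spots of 1 probe were averaged. Each array was then scaled to the 75th percentile of its own probe values. A probe entered the test (42.4% did) if both arrays of either group had it well above background; the test ran with limma 3.58.1 in R 4.3.3, two-sided, with Benjamini-Hochberg adjustment, after a run on simulated data. The authors' methods name t tests for continuous variables in general, and give no scaling or test for the arrays themselves. Where a group was not well above background, a fold was also taken with that group set to the lowest well-detected signal of each array, or the probe's own, if higher. Such a fold takes no account of the spread between arrays. All 101 probes matched RefSeq symbols, by RefSeq transcript or, failing that, by the array's own gene name. The match by name is no independent check of what a probe reads. Named genes were all TIMPs, MMP2, MMP9, MMP14, ADAM10 and ADAM17, members past 1.5-fold, and members detected on all 4 arrays without overlap at an unadjusted p under 0.05. The members and lists were chosen with earlier results of these data known. Probe positions are those of the files (hg19), and their place in exons or UTRs was not analysed here. The series value table differed from the scanner values by at most 0.496%. Replicate numbers did not pair the samples (correlation of replicate differences -0.03). The alternatives numbered 13.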

Additional observations from a re-analysis of the deposited data

How the results depend on the processing

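The median difference over the tested genes ran from -0.09 to 0.00 on the log2 scale over all alternatives. Member probes lower by more than 1.5-fold numbered 18 of 101 with no filter on dim probes, against 3 of 43 as reported. They numbered 1 among probes detected on all 4 arrays and 0 with normexp correction. Those higher numbered 5, 1 and 0 under the same alternatives, against 2 as reported. With quantile normalization 3 were higher. The share of all probes past 1.5-fold was not counted for any alternative, so these counts have no background beside them. Leaving out 1 array gave 1 to 5 lower and 2 to 5 higher probes. An adjusted p under 0.05 was reached by 3 member probes with normexp (MMP1, TIMP2 and ADAMTS13; 4.08% of all tested probes), 4 with the variance trend (7.41% of all) and 0 with each array left out. At an unadjusted p under 0.05 there were 10 as reported (24.3% of all tested probes), 15 of 101 without the filter (11.2% of all) and 8 to 14 with 1 array left out (13.5% to 23.5% of all). The replicate block, a paired fit by replicate number, gave 11 such probes (19.5% of all), with 2 higher and 3 lower past 1.5-fold and 0 after adjustment. Directions turned for MMP9 (0.20 with quantile normalization) and, with 1 array left out, for ADAM17 (-0.079 to 0.30, negative without miR-34a mimic 2), MMP2 (-0.0053 to 0.0555, negative without miR-34a mimic 1) and TIMP3 (-0.0229 to 0.17, negative without miR-34a mimic 1 or negative control 2). The cause was not tested. All other named probes kept their direction in every alternative that measured them. With each array left out, the lone array of its group is assumed to vary like the other group. Dim probes, within reach of the background, limit ADAM11, ADAM33, MMP9, ADAMTS4 and ADAMTS17.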
